A study of Mus musculus with 6 samples.

Results

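The Wnt ligands, receptors and antagonists of the cochlear sensory epithelium were chosen by gene symbol, under a rule that reads no measured value. The rule took every probe set that the array's annotation assigns to a single gene of the Wnt, frizzled, secreted frizzled-related protein, Dickkopf, R-spondin or Lgr4 to Lgr6 families, Lrp5 and Lrp6, and Frzb, Wif1, Porcn, Notum, Axin2, Nkd1, Lef1, Tcf7, Tcf7l1 and Tcf7l2. It found 56 genes with 109 probe sets, of 18193 single genes and 45037 probe sets that are no controls. One of the 56 is Fzd10os, an antisense transcript that the name pattern also catches, and Tcf7 had 0 probe sets in this annotation. A total of 44 genes with 77 probe sets passed background on 3 or more of the 6 arrays and were tested, which is 78.6% of the genes found, against 75.5% of all genes.

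The study compared 2 stages of micro-dissected cochlear sensory epithelia (CSE) of Swiss mice, given as Swiss Webster in the study's methods, on Affymetrix Mouse Genome 430 2.0 arrays. The adult group was 8 weeks old and the P3 group was at postnatal day 3. Mice of neither stage carried a labelled mutation or treatment. Each of the 3 arrays of a stage held RNA of 1 pool of 40 CSE from 20 mice, and the 3 pools of a stage came from separate dissections of 60 mice in all. The capsule, modiolus, spiral ligament and stria vascularis had been cut away by hand, so that CSE holds hair cells, supporting cells and what stays attached to them. The adult tissue includes the inner sulcus and interdental cells, and the P3 tissue the greater and lesser epithelial ridges, so that stage and tissue make-up cannot be told apart.

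Wnt proteins are secreted ligands that carry a lipid and bind frizzled receptors. Together with the co-receptors Lrp5 and Lrp6, frizzled receptors stabilise beta-catenin, which joins TCF/LEF factors on DNA to switch on target genes, and R-spondins bound to Lgr receptors keep frizzled receptors on the cell surface. Secreted frizzled-related proteins, Dickkopf proteins, Wif1 and Notum restrain the pathway outside the cell, and Axin2 and Nkd1 restrain it inside. In the cochlea the pathway is known for the division of progenitors in the developing sensory epithelium, for the Lgr5-positive supporting cells of the newborn organ of Corti, and, through Wnt5a, Fzd3 and Fzd6, for the orientation of hair cell bundles.

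Signals are MAS5.0 intensities, with each array scaled to a trimmed mean of 100, and are given in the order of replicates 1 to 3. A background level was set on every array from probe sets of receptor genes for smell, pheromones and bitter taste. It was 16.3, 9.05 and 8.71 on adult arrays 1 to 3 and 34.5, 9.16 and 6.29 on P3 arrays 1 to 3. P3 replicate 1 stood apart from the other 5 arrays: 47.4% of its probe sets were above background, against 58.6% to 68.1% elsewhere, and the ratio of the 3′ to the 5′ Gapdh control was 82.0, against 0.707 to 2.07. Among the 77 tested probe sets of the Wnt genes it was the lowest P3 array on 34 and the highest on 31. It was over 4-fold below both other P3 arrays on 7, in Wif1, Fzd1, Fzd2, Fzd10, Sfrp1, Lef1 and Wnt6. Printed log2 fold changes of Wnt and other pathway genes that moved by over 1.5-fold or changed their call without this array are given both ways. Those of marker genes are given with all arrays only. The fold change of every tested Wnt gene is plotted both ways.

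Marker lists of the tissue and its neighbours were read in the same fit. Over all genes tested, 4.58% were called higher and 5.54% lower in adult CSE. At an unadjusted p under 0.05 by limma these shares were 13.1% and 15.8%. Of the hair cell markers 6 of 10 were tested and 0 were called by limma (0 also at an unadjusted p under 0.05), with a summed signal of 363 to 598 on adult and 408 to 616 on P3 arrays, while the outer hair cell gene Slc26a5 was above background on 0 arrays. Supporting cell markers had 1 gene higher and 5 lower in adult CSE of 10 tested, with sums of 7101 to 11920 on adult and 12350 to 19850 on P3 arrays. Of the tested fibroblast markers 1 was higher and 3 were lower in adult CSE of 12, with sums of 9992 to 12400 on adult and 17540 to 39420 on P3 arrays. Granulocyte markers were higher for 7 of 8, with sums of 3770 to 16720 on adult and 129 to 414 on P3 arrays. Markers of dividing cells were lower for 4 of 9, with sums of 317 to 779 on adult and 946 to 1678 on P3 arrays. Osteoblast markers had 1 higher of 5, chondrocyte markers 2 lower of 7, neuron markers 3 higher of 8, markers of stria vascularis and melanocytes 2 higher and 1 lower of 7, and markers of glia and of endothelium 0 called of 5 and of 8. At an unadjusted p under 0.05 by limma, 2 glia markers, 1 in each direction, and 0 endothelium markers passed.

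The called Wnt genes were some of the antagonists, receptors and TCF/LEF factors. Of the 19 ligand genes 9 were tested and 0 were called, beside 4.58% higher and 5.54% lower over all genes. Sfrp2, Sfrp1 and Lef1 fell furthest in adult CSE, by 4.35, 2.55 and 2.55 on the log2 scale. Fzd1, Fzd2, Lgr6, Notum, Nkd1 and Tcf7l1 fell by 1.09 to 1.52. Sfrp4 alone rose, by 2.12. In bulk RNA of dissected tissue, fewer cells of a type and less RNA per cell cannot be told apart.

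The counts were taken with limma over all tested probe sets, and a gene was called where its p, adjusted by Benjamini-Hochberg, was under 0.05 and the stages differed by 2-fold or more, with the brightest probe set standing for its gene. Of the 44 tested Wnt genes 1 was called higher in adult CSE, which is 2.27% against 4.58% of all genes tested. Another 9 were called lower, which is 20.5% against 5.54% of all genes. The remaining 34 were not called. By probe set, 1 of 77 was called higher and 13 were called lower, against 3.39% and 3.87% of all probe sets. The 3 adult arrays lay wholly above the 3 P3 arrays for 3 Wnt genes, 6.82% against 16.0% of all genes, and wholly below them for 12, 27.3% against 20.4%. The median log2 fold change of the 44 genes was -0.25, beside -0.04 over all genes tested, with 29 genes below 0 and 15 above. The count of genes lower in adult CSE was sensitive to single arrays: it was 8 without P3 replicate 1 (6.44% of all genes) and 4 or 5 without any other array (1.77% to 4.42% of all genes), while Sfrp1, Sfrp2, Lef1 and Fzd1 were called in all 6 of these fits. With every array scaled to the same median, Sfrp1, Sfrp2 and Lef1 were the 3 called lower and Sfrp4 the 1 called higher.

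**Figure D1:**
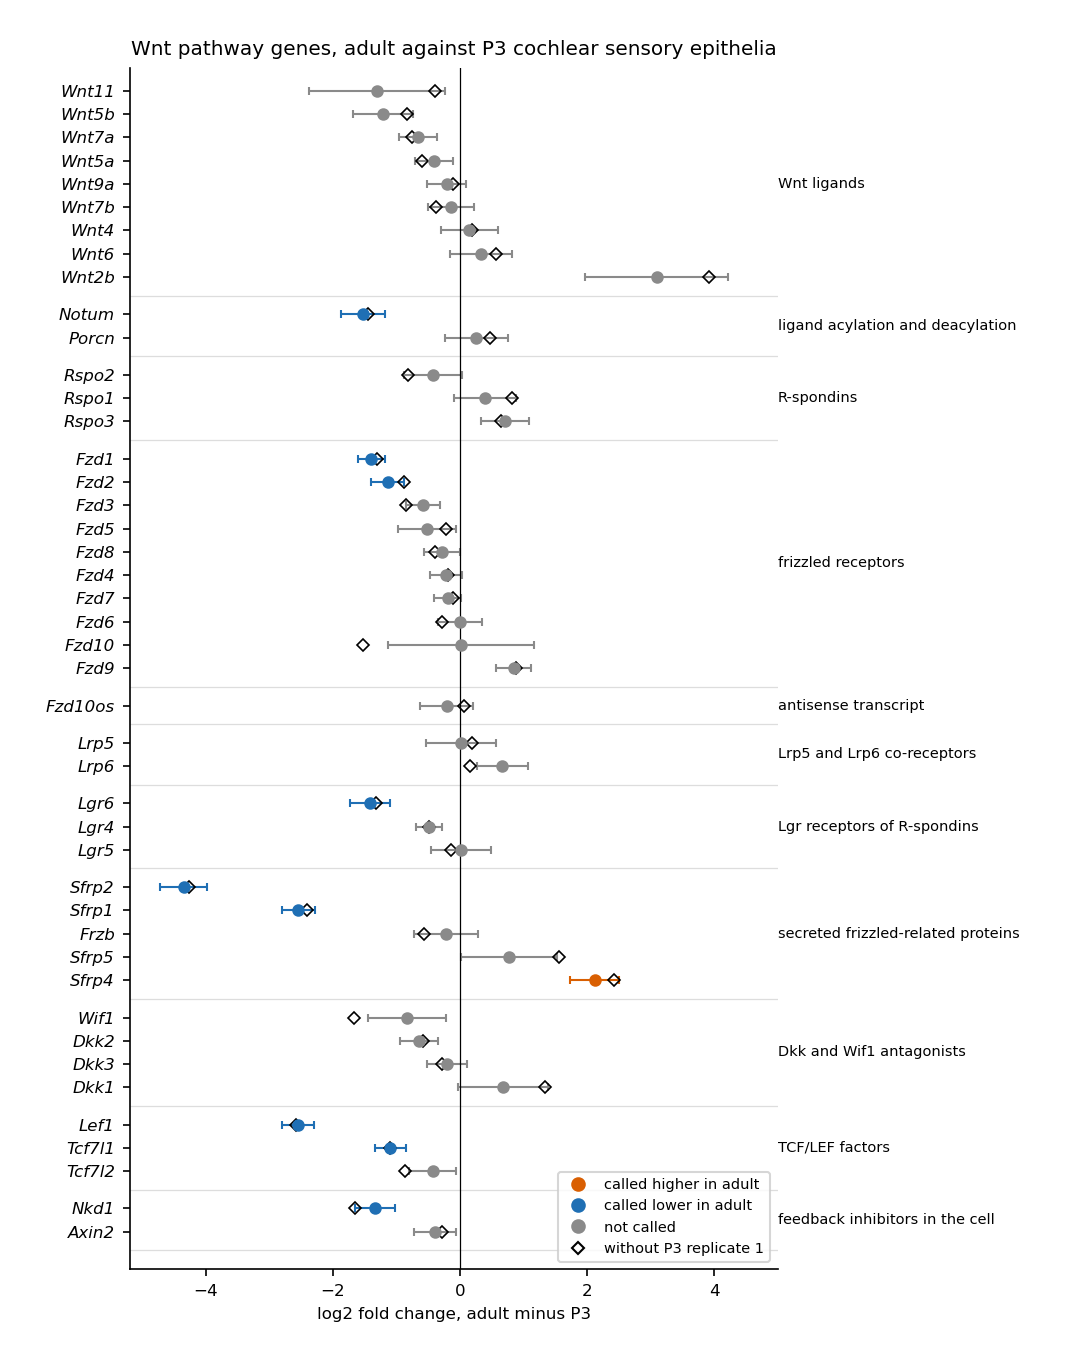
Log2 fold change, adult minus P3, of the 44 tested Wnt genes by role, with limma's standard error as bars. Filled circles use all 6 arrays and are coloured by call, and open diamonds leave out P3 replicate 1. The 9 genes called lower in adult CSE lie between -4.35 and -1.09, Sfrp4 lies at 2.12, and Wif1 and Fzd10, which were not called, lie at -1.67 and -1.52 without P3 replicate 1.

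Promoters from RefSeq on GRCm38.p6, 250 bases before to 50 after a gene's start, were searched for CTTTGAT, the core of a TCF/LEF motif, on both strands (ATCAAAG on the other). Of all 32851 promoters 3.73% held a match. The Wnt genes had promoters for 36 of 56, and 2 of the 36, Wnt5b and Wnt11, held a match, which is 5.56% of genes against 4.29% of all genes. Of the called Wnt genes 6 of 10 had a promoter and 0 held one. Among 9 called genes of a separate list of other pathway genes, 4 had a promoter and 1 held a match: Sp5, a factor known as a target of the pathway. The promoters of Sfrp2 and Lef1 (the first of its 4), which fell furthest of the Wnt genes with a promoter here, and of Sp5 are shown for that contrast, each on the plus strand, at chr3:83766071-83766370, chr3:131110047-131110346 and chr2:70474673-70474972, with the match in capitals.
Sfrp2: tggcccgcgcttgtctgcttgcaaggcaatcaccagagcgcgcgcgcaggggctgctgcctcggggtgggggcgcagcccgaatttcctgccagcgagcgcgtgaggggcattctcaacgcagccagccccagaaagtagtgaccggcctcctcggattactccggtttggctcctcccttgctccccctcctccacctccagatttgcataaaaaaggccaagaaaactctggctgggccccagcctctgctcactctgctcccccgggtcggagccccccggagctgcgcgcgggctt
Lef1: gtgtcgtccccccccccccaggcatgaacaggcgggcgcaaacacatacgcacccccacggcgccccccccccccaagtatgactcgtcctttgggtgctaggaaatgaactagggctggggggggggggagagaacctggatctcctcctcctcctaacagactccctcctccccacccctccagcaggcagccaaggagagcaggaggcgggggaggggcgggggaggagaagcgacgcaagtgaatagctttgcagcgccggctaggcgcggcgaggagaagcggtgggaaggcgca
Sp5: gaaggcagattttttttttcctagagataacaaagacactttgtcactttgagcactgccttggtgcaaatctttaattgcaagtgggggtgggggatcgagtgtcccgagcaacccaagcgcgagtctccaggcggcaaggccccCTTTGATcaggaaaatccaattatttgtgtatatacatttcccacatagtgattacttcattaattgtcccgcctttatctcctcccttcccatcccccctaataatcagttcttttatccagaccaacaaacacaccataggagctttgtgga
The match in Sp5 begins 104 bases before the start. The first 2 promoters hold 66.0% and 67.3% G and C, and that of Sp5 holds 45.0%. A match describes these letters only and names no bound site, and the lack of one covers only these letters in this window.

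Secreted frizzled-related proteins resemble the ligand-binding part of a frizzled receptor and can capture Wnt proteins outside the cell. All 5 family members were tested, and they split in direction. Sfrp2, whose promoter held no CTTTGAT, had 27.7, 15.2 and 11.5 in adult CSE, against 386, 355 and 298 in P3 CSE. The highest adult array was more than 10-fold below the lowest P3 array. The log2 fold change was -4.35 ± 0.37 (SE, n = 3 arrays per stage, adjusted p = 0.00088 by limma), a 20.4-fold difference, and Sfrp2 was called under all 17 alternative settings.

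Sfrp1, a close relative of Sfrp2, had 137, 111 and 153 in adult CSE, against 925, 869 and 572 in P3 CSE, on its brightest probe set. Every adult array was below every P3 array, with a log2 fold change of -2.55 ± 0.26 (SE, adjusted p = 0.00168 by limma). It too was called under all 17 settings. The array carries 5 tested Sfrp1 probe sets, and 4 of them were called lower, with log2 fold changes between -4.26 and -1.81. The largest of these, 1416594_at, read 29.4, 23.2 and 26.5 in adult CSE, against 633, 562 and 356 in P3 CSE. The fifth, 1460187_at, read 20.8, 22.9 and 23.6 in adult CSE, against 11.5, 228 and 276 in P3 CSE. There P3 replicate 1 was below all adult arrays while the other P3 arrays were far above them, so that the stages overlapped. Its log2 fold change was -2.01 (adjusted p = 0.297 by limma), and without P3 replicate 1 it was -3.49 (adjusted p = 0.00156).

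Sfrp4 ran the other way. It had 702, 419 and 288 in adult CSE, against 153, 84.2 and 79.7 in P3 CSE. All adult arrays were above all P3 arrays, although the adult arrays themselves spread more than 2-fold. The log2 fold change was 2.12 ± 0.38 (SE, adjusted p = 0.0149 by limma), and 2.42 without P3 replicate 1. The call was lost without P3 replicate 3, where the log2 fold change was 1.95, and in a fit with no intensity trend.

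The other two relatives were not called. Frzb, an antagonist first known from cartilage, had 136, 499 and 245 in adult CSE, against 182, 491 and 290.1 in P3 CSE, and its stages overlapped, with a log2 fold change of -0.22 (95% interval -1.37 to 0.94). Its dimmer probe set gave a log2 fold change of -1.38 (adjusted p = 0.311 by limma). Sfrp5 had 88.2, 21.7 and 47.8 in adult CSE, against 77.8, 15.0 and 15.8 in P3 CSE, also overlapping, with a log2 fold change of 0.77 (95% interval -0.95 to 2.49). P3 replicate 1 was far above the other P3 arrays, and without it the log2 fold change was 1.55 (adjusted p = 0.128 by limma).

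Of the fibroblast markers, Col3a1, Postn and Twist2 were called lower and Thy1 higher in adult CSE. Of the supporting cell markers, Sox2, Jag1, Tecta, Tectb and Otog were called lower and Gjb6 higher. The other markers of both lists were not called. The part of these cell types in the Sfrp differences was not tested.

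**Figure D2:**
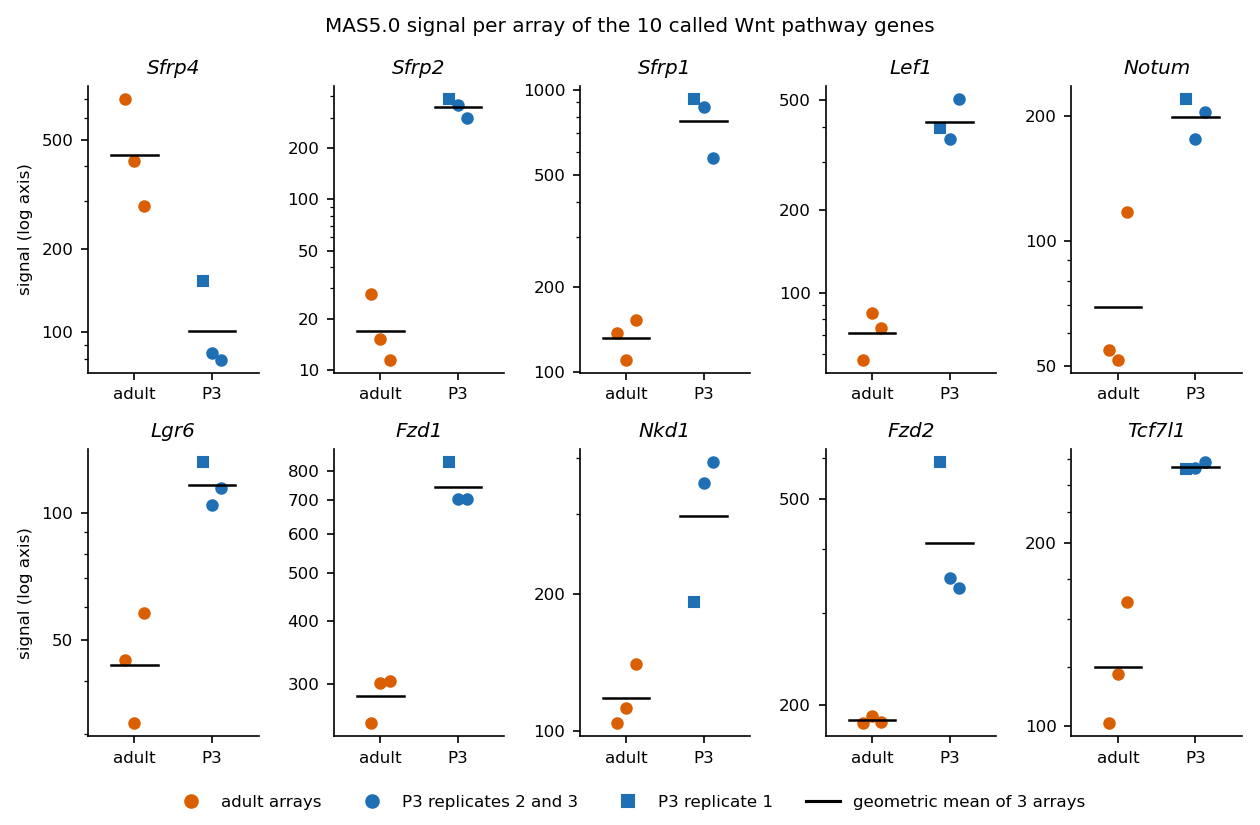
MAS5.0 signal on each array, on a log axis of its own range per gene, of the 10 Wnt genes called, with the adult arrays left and the P3 arrays right and the geometric mean of 3 arrays as a line. Squares mark P3 replicate 1. The stages do not overlap for any of the 10, and Sfrp2, with at most 27.7 on adult and at least 298 on P3 arrays, is the most widely separated.

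Notum is an enzyme that removes the lipid from Wnt proteins, and Porcn is the enzyme that attaches it. Notum had 54.7, 51.8 and 117 in adult CSE, against 219, 176 and 204 in P3 CSE. Adult replicates 1 and 2 were close together and replicate 3 was higher, still below all P3 arrays. The log2 fold change was -1.52 ± 0.35 (SE, adjusted p = 0.0349 by limma). Without adult replicate 3 the call held, and without any 1 of the other 5 arrays it was lost. Without P3 replicate 1 the log2 fold change was -1.45 (adjusted p = 0.0544 by limma). Porcn had 129, 33.5 and 76.7 in adult CSE, against 78.3, 47.1 and 52.8 in P3 CSE, with overlapping stages and a log2 fold change of 0.25 (95% interval -0.88 to 1.39).

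No Dickkopf gene passed the test by limma, nor at an unadjusted p under 0.05. The proteins of Dkk1 and Dkk2 bind Lrp5 and Lrp6, whereas Wif1 binds the Wnt protein itself. Dkk3 had 330.3, 463 and 658 in adult CSE, against 486, 716 and 442 in P3 CSE, on the brighter of its probe sets, with a log2 fold change of -0.20, and its other probe set gave a log2 fold change of 0.014. The stages overlapped on both. Dkk2 had 129.7, 257 and 191 in adult CSE, against 316, 325 and 236 in P3 CSE, with a log2 fold change of -0.64 (95% interval -1.31 to 0.029, adjusted p = 0.231 by limma). Dkk1 gave a log2 fold change of 0.68 with a 95% interval of -0.93 to 2.28, and 1.33 (adjusted p = 0.164 by limma) without P3 replicate 1. Dkk4 was above background on 0 arrays.

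Wif1 turned on 1 array. It had 94.3, 129 and 112 in adult CSE, against 62.0, 381 and 326 in P3 CSE. P3 replicate 1 was below every adult array and the other P3 arrays were above every one. With all arrays the log2 fold change was -0.84 ± 0.62 (SE, adjusted p = 0.459 by limma) and Wif1 was not called. Without P3 replicate 1 it was -1.67 (adjusted p = 0.00774) and Wif1 was called lower in adult CSE.

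Frizzled receptors, which carry the Wnt signal across the membrane, were all 10 above background. Fzd1 and Fzd2 were called lower in adult CSE, and the median log2 fold change of the 10 was -0.25. Fzd1 had 249.8, 301 and 303 in adult CSE, against 834, 704 and 703 in P3 CSE. The 6 arrays formed 2 tight groups without overlap, with a log2 fold change of -1.39 ± 0.21 (SE, adjusted p = 0.00689 by limma). A second, dim probe set read 5.34, 14.4 and 6.16 in adult CSE, against 4.79, 24.8 and 19.7 in P3 CSE, and was above background on 1 adult and 2 P3 arrays. It was not called, with a log2 fold change of -0.77 with all arrays and -1.51 (adjusted p = 0.164 by limma) without P3 replicate 1.

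For Fzd2 the result differed between probe sets. Its brightest probe set, 1418534_at, read 184, 190.1 and 185 in adult CSE, against 587, 351 and 336 in P3 CSE. The adult arrays agreed closely, and P3 replicate 1 was the highest of all, with a log2 fold change of -1.14 ± 0.26 (SE, adjusted p = 0.0352 by limma). Without P3 replicate 1 it was -0.88 (adjusted p = 0.0326), under the fold of 2, and the call was lost without any 1 of the 6 arrays. Probe set 1418532_at of the same gene read 104, 136 and 117 in adult CSE, against 10.7, 242 and 316 in P3 CSE. Here P3 replicate 1 was instead the lowest of all 6 arrays. The log2 fold change was 0.34 with all arrays and -1.22 (adjusted p = 0.0228 by limma) without P3 replicate 1. The third, 1418533_s_at, read 177, 139.5 and 189 in adult CSE, against 76.7, 266 and 341 in P3 CSE, and gave a log2 fold change of -0.19 with all arrays and -0.85 without P3 replicate 1.

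**Figure D3:**
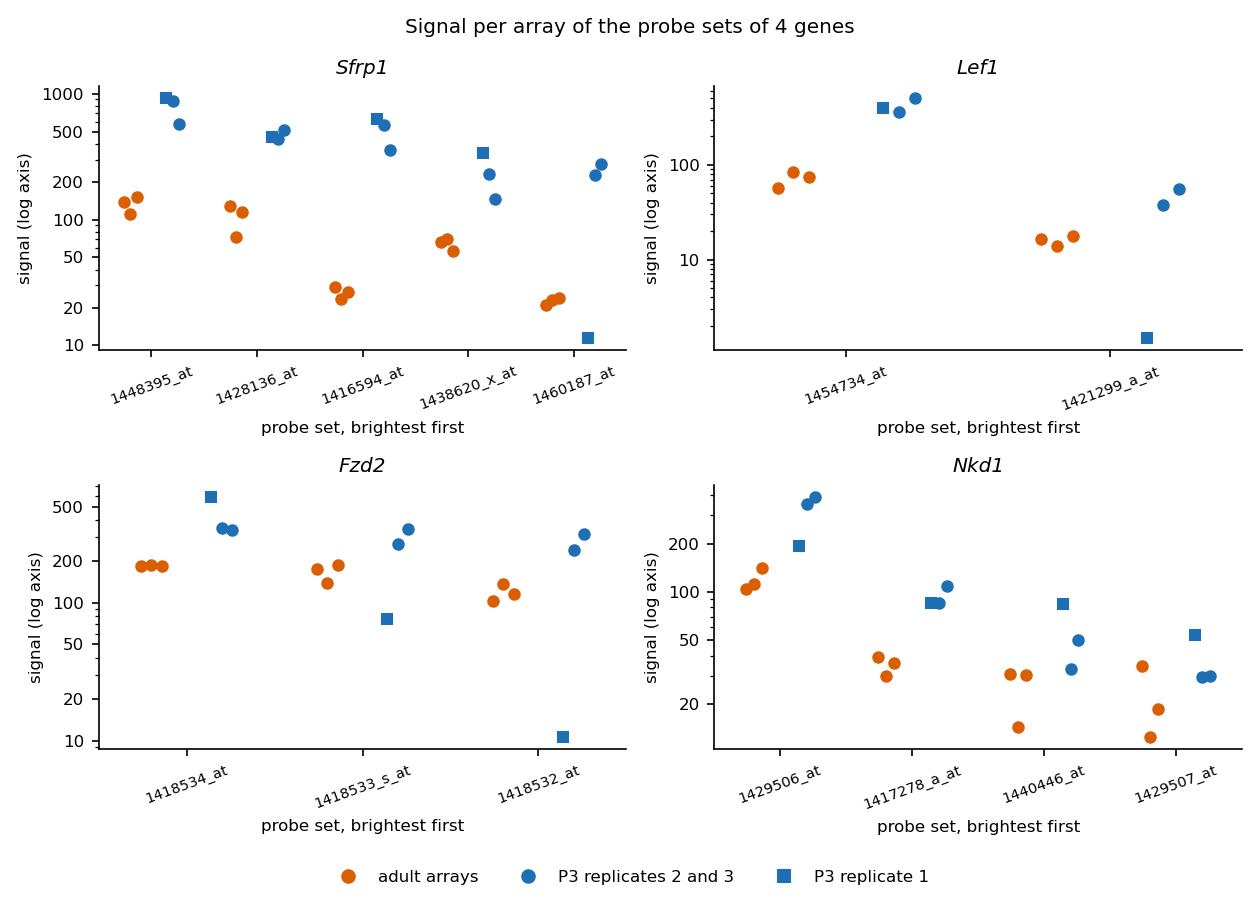
MAS5.0 signal on each array, on log axes, of every tested probe set of Sfrp1, Lef1, Fzd2 and Nkd1, with adult arrays left of P3 arrays in each pair. Squares mark P3 replicate 1, which is far below the other P3 arrays on Sfrp1 1460187_at (11.5), Lef1 1421299_a_at (1.51) and Fzd2 1418532_at (10.7) and with or above them on the brightest probe sets of these 3 genes.

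Of the other 8 frizzled receptors, Fzd9 came nearest to a rise. It had 495, 618 and 944 in adult CSE, against 390.4, 311 and 411 in P3 CSE. The stages did not overlap, and the log2 fold change was 0.84 ± 0.28 (SE, 95% interval 0.21 to 1.48), with an adjusted p of 0.109 by limma and a fold under 2. Fzd10 had 49.5, 18.2 and 32.0 in adult CSE, against 3.61, 95.7 and 81.1 in P3 CSE. P3 replicate 1 was again below every adult array with the other P3 arrays above every one, so that the log2 fold change was 0.015 with all arrays and -1.52 (adjusted p = 0.0686 by limma) without it. Its antisense transcript Fzd10os gave a log2 fold change of -0.21 (95% interval -1.16 to 0.74).

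Fzd3 and Fzd6 act with Wnt5a in the planar polarity of hair cells. Fzd3 had 276, 236 and 252 in adult CSE, against 263, 483 and 433 in P3 CSE, with a log2 fold change of -0.58 (95% interval -1.20 to 0.031, adjusted p = 0.234 by limma). Without P3 replicate 1 it was -0.85 (adjusted p = 0.0385), which is under the fold of 2 and no call. Its 4 tested probe sets gave -0.58 to -0.44, all below 0 and none called. Fzd6 had 199, 369 and 314 in adult CSE, against 192, 412 and 289.9 in P3 CSE. The stages overlapped, and the 95% interval of the log2 fold change ran -0.78 to 0.78. The dimmer Fzd6 probe set read 9.81, 26.9 and 20.5 in adult CSE, against 60.5, 42.2 and 28.8 in P3 CSE, without overlap, with a log2 fold change of -1.25 (adjusted p = 0.2 by limma).

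Fzd4, Fzd5, Fzd7 and Fzd8 were not called either. Their brightest probe sets gave log2 fold changes between -0.52 and -0.19, and the stages overlapped on each of them. The dimmer Fzd8 probe set read 27.9, 32.5 and 33.5 in adult CSE, against 41.7, 65.4 and 54.9 in P3 CSE, without overlap. It was not called, with a log2 fold change of -0.77 (adjusted p = 0.238 by limma). Fzd4, the receptor of Norrin in blood vessels, had 79.6, 87.1 and 94.8 in adult CSE, against 108, 106 and 91.7 in P3 CSE, and the stages overlapped. The other Fzd4 probe set read 72.5, 83.7 and 79.3 in adult CSE, against 36.2, 119 and 94.6 in P3 CSE, at 0.082 on the log2 scale. Fzd7 had 408, 514 and 447 in adult CSE, against 579.8, 543 and 444 in P3 CSE, with a 95% interval of -0.68 to 0.30 for the log2 fold change.

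The co-receptors Lrp5 and Lrp6 were not called. Lrp6 had 330.3, 468 and 401 in adult CSE, against 124, 359.9 and 347 in P3 CSE, where P3 replicate 1 was the lowest. Its log2 fold change was 0.67 (95% interval -0.26 to 1.59) with all arrays and 0.16 without P3 replicate 1, and its second probe set gave a log2 fold change of 0.35. Lrp5 had 18.7, 11.2 and 19.4 in adult CSE, against 20.0, 13.3 and 14.6 in P3 CSE, near background, with a log2 fold change of 0.02 (95% interval -1.23 to 1.27).

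Lgr4, Lgr5 and Lgr6 are the receptors of R-spondins, and Lgr5 and Lgr6 also mark subsets of cochlear supporting cells. Lgr6 had 44.9, 31.8 and 57.9 in adult CSE, against 132, 105 and 115 in P3 CSE. The stages did not overlap, with a log2 fold change of -1.42 ± 0.32 (SE, adjusted p = 0.0334 by limma). The call held without P3 replicate 1, at -1.33, and was lost without any 1 of the other 5 arrays. Its dimmer probe set read 28.4, 13.1 and 12.1 in adult CSE, against 27.5, 26.2 and 30.0 in P3 CSE, and gave a log2 fold change of -0.75 (adjusted p = 0.423).

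Lgr5 showed no difference that the 6 arrays could resolve. It had 105, 450.3 and 234 in adult CSE, against 177, 259 and 234 in P3 CSE. The adult arrays held both the lowest and the highest value and spanned more than 4-fold. The log2 fold change was 0.014 with a 95% interval of -1.07 to 1.09, which leaves room for a 2-fold change either way. Lgr4 had 317, 374 and 412 in adult CSE, against 508, 527 and 501 in P3 CSE. The adult arrays were all lower, with a log2 fold change of -0.49 (95% interval -0.95 to -0.02, adjusted p = 0.194 by limma), and Lgr4 was not called. The difference between the Lgr genes was not tested.

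R-spondins, the secreted partners of these receptors, had 3 of 4 genes tested and 0 called by limma (0 also at an unadjusted p under 0.05). Rspo3 had 222, 638 and 506 in adult CSE, against 232, 236 and 297 in P3 CSE. Adult replicates 2 and 3 were above all P3 arrays and adult replicate 1 was below them, with a log2 fold change of 0.71 (95% interval -0.15 to 1.57). Without adult replicate 1 it was 1.16 (adjusted p = 0.0368 by limma) and Rspo3 was called higher in adult CSE. Rspo2 had 114, 335 and 188 in adult CSE, against 149, 378 and 304 in P3 CSE, overlapping, with a log2 fold change of -0.42 with all arrays and -0.82 (adjusted p = 0.249 by limma) without P3 replicate 1. Its dimmer probe set read 24.3, 20.2 and 14.8 in adult CSE, against 31.0, 16.1 and 12.5 in P3 CSE, with a log2 fold change of 0.076. Rspo1 gave a log2 fold change of 0.39 with a 95% interval of -0.72 to 1.51, and Rspo4 was above background on 0 arrays.

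Among the Wnt ligands, 9 of 19 genes were tested and 0 were called in either direction by limma. At an unadjusted p under 0.05, 1 was higher and 1 was lower in adult CSE, beside 13.1% and 15.8% of all genes. Their median log2 fold change was -0.21. Wnt5a, a ligand of the planar polarity branch, had 539, 957 and 958 in adult CSE, against 808, 1195 and 1203 in P3 CSE. The stages overlapped, and the log2 fold change was -0.41 (95% interval -1.10 to 0.28, adjusted p = 0.457 by limma), with -0.62 to -0.01 over its 4 probe sets. Wnt4 had 341, 111 and 99.2 in adult CSE, against 149, 158 and 117 in P3 CSE. Adult replicate 1 was the highest of the 6 and the other adult arrays the lowest, with a 95% interval of -0.88 to 1.18 for the log2 fold change.

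For 3 ligands the stages did not overlap on the brightest probe set, 1 higher and 2 lower in adult CSE of 9 tested, beside 16.0% and 20.4% of all genes. Wnt7a, which is known from the sensory epithelium of the developing cochlea, had 44.2, 49.4 and 47.0 in adult CSE, against 64.1, 89.7 and 70.0 in P3 CSE, with a log2 fold change of -0.66 ± 0.30 (SE, adjusted p = 0.23 by limma). Its dimmer probe set, 1447647_at, read 19.7, 12.6 and 16.9 in adult CSE, against 67.9, 10.4 and 8.50 in P3 CSE, and overlapped. That probe set gave a log2 fold change of -0.17 with all arrays and 0.78 (adjusted p = 0.348 by limma) without P3 replicate 1, where the brightest gave -0.76. Wnt5b had 31.5, 17.9 and 37.0 in adult CSE, against 107, 42.4 and 57.0 in P3 CSE, with a log2 fold change of -1.21 ± 0.47 (SE, adjusted p = 0.165 by limma), while its second probe set gave a log2 fold change of -0.067. Wnt2b was the one that was higher in all adult arrays, with 23.7, 17.4 and 10.4 in adult CSE, against 5.94, 2.26 and 0.511 in P3 CSE. It was above background on 3 adult arrays and 0 P3 arrays. With the P3 signals raised to background the difference was at least 1.29-fold, and the fit on the signals as deposited gave an adjusted p of 0.139 with all arrays and 0.0501 without P3 replicate 1.

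Wnt6, Wnt7b, Wnt9a and Wnt11 overlapped between the stages, with log2 fold changes of 0.34, -0.14, -0.21 and -1.31. The dimmer Wnt6 probe set read 33.5, 15.9 and 21.3 in adult CSE, against 4.63, 29.7 and 24.1 in P3 CSE. It gave a log2 fold change of 0.59 with all arrays and -0.25 without P3 replicate 1. Wnt11 was near background, with 16.7, 2.32 and 16.7 in adult CSE, against 75.9, 7.63 and 16.9 in P3 CSE, and its log2 fold change was -0.39 without P3 replicate 1 and ran from -2.05 to -0.36 over the fits that leave out an array. The other 10 ligand genes, Wnt1, Wnt2, Wnt3, Wnt3a, Wnt8a, Wnt8b, Wnt9b, Wnt10a, Wnt10b and Wnt16, were not above background on 3 arrays. Of these, Wnt16 and Wnt2 were above background on 2 adult arrays and on 0 P3 arrays. Wnt16, a ligand known for its part in bone, read 21.1, 20.5 and 8.49 in adult CSE, against 1.34, 0.984 and 0.636 in P3 CSE, at least 1.23-fold higher in adult CSE with the P3 signals raised to background. On arrays where they were not above background these probe sets give only an upper limit for the signal, not absence of the transcript.

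TCF/LEF factors bind beta-catenin in the nucleus. Lef1, itself a known target of the pathway though without CTTTGAT in the promoters searched, had 57.1, 84.8 and 74.5 in adult CSE, against 397, 361 and 506 in P3 CSE. The stages were far apart, with a log2 fold change of -2.55 ± 0.25 (SE, adjusted p = 0.00158 by limma) and -2.59 without P3 replicate 1. Its second probe set, 1421299_a_at, read 16.6, 13.9 and 17.9 in adult CSE, against 1.51, 37.8 and 55.5 in P3 CSE, and P3 replicate 1 was the lowest of all 6 arrays. It gave a log2 fold change of 0.12 with all arrays and -1.52 (adjusted p = 0.0461 by limma) without P3 replicate 1. Where both probe sets were averaged, Lef1 was not called.

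Tcf7l1, mostly known as a repressor, had 101, 122 and 159.8 in adult CSE, against 265, 266 and 272 in P3 CSE. The P3 arrays were nearly equal and all above the adult arrays, with a log2 fold change of -1.09 ± 0.24 (SE, adjusted p = 0.0311 by limma). The call was lost without any 1 array other than P3 replicate 1. Its second probe set read 112, 128 and 109 in adult CSE, against 180.2, 130.1 and 184 in P3 CSE, with a log2 fold change of -0.49 (adjusted p = 0.274 by limma). Tcf7l2 had 92.9, 114 and 96.5 in adult CSE, against 75.2, 176 and 189 in P3 CSE. P3 replicate 1 was below the adult arrays and its other P3 arrays above them, and the log2 fold change was -0.43 with all arrays and -0.86 (adjusted p = 0.0538 by limma) without that array. Of its other tested probe sets, 1429427_s_at overlapped between the stages, with a log2 fold change of -0.50. The dim 1425229_a_at read 5.12, 13.7 and 21.8 in adult CSE, against 31.4, 33.1 and 34.2 in P3 CSE, without overlap, with a log2 fold change of -1.51 (adjusted p = 0.186 by limma).

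Axin2 and Nkd1 are inhibitors inside the cell that the pathway itself is known to induce. Nkd1 had 104, 112 and 140.4 in adult CSE, against 192, 351 and 391 in P3 CSE. The stages did not overlap, and P3 replicate 1 was the lowest of the P3 arrays, with a log2 fold change of -1.34 ± 0.31 (SE, adjusted p = 0.0362 by limma) and -1.65 without that array. Without any 1 of the other 5 arrays the call was lost. Probe set 1417278_a_at, with 39.0, 29.8 and 35.8 in adult CSE, against 85.5, 85.1 and 109.5 in P3 CSE, was also called, with a log2 fold change of -1.42, and the other two gave log2 fold changes of -1.12 and -0.85 without a call. Axin2 had 149.9, 77.9 and 139 in adult CSE, against 178, 115 and 178 in P3 CSE. It overlapped between the stages, with a log2 fold change of -0.39 (95% interval -1.14 to 0.37, adjusted p = 0.526 by limma).

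Other genes of the pathway were taken from a list of 46, of which 44 were tested, Dvl3 was not above background and Kremen2 had no probe set of its own. In adult CSE 1 of the 44 was higher and 8 were lower, beside 4.58% and 5.54% of all genes, and their median log2 fold change was -0.51. The targets Ccnd1, which drives cells into the division cycle, Ccn4 and Myc were lower. Ccnd1 had 90.9, 119.8 and 105 in adult CSE, against 860.3, 762 and 782 in P3 CSE, a clear separation, with a log2 fold change of -2.94 ± 0.21 (SE, adjusted p = 0.000499 by limma). Ccn4 had 109, 162 and 84.2 in adult CSE, against 579.7, 522 and 478 in P3 CSE, with a log2 fold change of -2.20. Ccnd1 and Ccn4 were called under all 17 settings. Markers of dividing cells were lower for 4 of 9, and the others, Mki67 and Mcm2 among them, were not called. The part of dividing cells in the fall of Ccnd1 and Myc was not tested.

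Of the inhibitors on this list, Dact1, a partner of Dishevelled, had 81.3, 62.7 and 49.0 in adult CSE, against 217, 312 and 357 in P3 CSE, with a log2 fold change of -2.20. Apcdd1, which acts at the cell membrane, had 490.4, 403 and 410.1 in adult CSE, against 1473, 1428 and 1166 in P3 CSE, with a log2 fold change of -1.64. Neither overlapped between the stages, and both were called without each array in turn. Sostdc1, an antagonist of BMP and Wnt proteins, the co-repressor Tle1, the cycle gene Myc and the target Sp5 were called with all arrays. Their log2 fold changes were -1.84, -1.23, -1.78 and -2.98. Of the 6 fits that leave out an array, the call held in 2 for Sostdc1, 4 for Tle1, 3 for Myc and 2 for Sp5. Without P3 replicate 1 Sostdc1 was not called, at -1.61 (adjusted p = 0.0542 by limma). Sp5 had 4.04, 16.3 and 2.80 in adult CSE, above background on 1 adult array only.

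Sost encodes sclerostin, an antagonist made by osteocytes, and it was the gene of this list that rose. It had 69.3, 173 and 84.3 in adult CSE, against 3.90, 5.41 and 0.434 in P3 CSE, above background on 3 adult arrays and 0 P3 arrays. The difference was at least 7.98-fold with the P3 signals raised to background (adjusted p = 0.0134 by limma on the signals as deposited), and the call was lost without adult replicate 2 and without adult replicate 3. The osteocyte gene Dmp1 was the osteoblast marker called higher in adult CSE. It had 1965, 1808 and 1323 in adult CSE, against 928, 433 and 570 in P3 CSE. Ibsp, Sp7, Alpl and Phex were not called, with log2 fold changes of -0.04, -0.52, 0.78 and 0.54 with all arrays, and their stages overlapped. Sp7 had 57.7, 32.3 and 21.4 in adult CSE, against 118, 39.7 and 24.9 in P3 CSE. Alpl had 150, 99.5 and 94.5 in adult CSE, against 182, 38.7 and 39.2 in P3 CSE. For Alpl only P3 replicate 1 was above the adult arrays, and the other P3 arrays were below all of them. The summed signal of the osteoblast list, Dmp1 included, was 1709 to 2942 on adult and 914 to 2056 on P3 arrays. The 2056 was on P3 replicate 1, which was the highest P3 array for each of these markers. The sums of P3 replicates 2 and 3 were below those of all adult arrays. The part of these markers in the rise of Sost was not tested.

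The 4 uncalled genes of highest signal on this list work inside the cell. Beta-catenin, Ctnnb1, had 3473, 5149 and 5812 in adult CSE, against 5858, 4129.9 and 3384 in P3 CSE, overlapping, with a log2 fold change of 0.11. The kinases Csnk1a1 and Csnk1d gave log2 fold changes of -0.63 and -0.98, and Tnks2, which marks Axin for destruction, gave a log2 fold change of -0.53, with adjusted p-values of 0.155, 0.0814 and 0.21 by limma and no call.

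**Figure D4:**
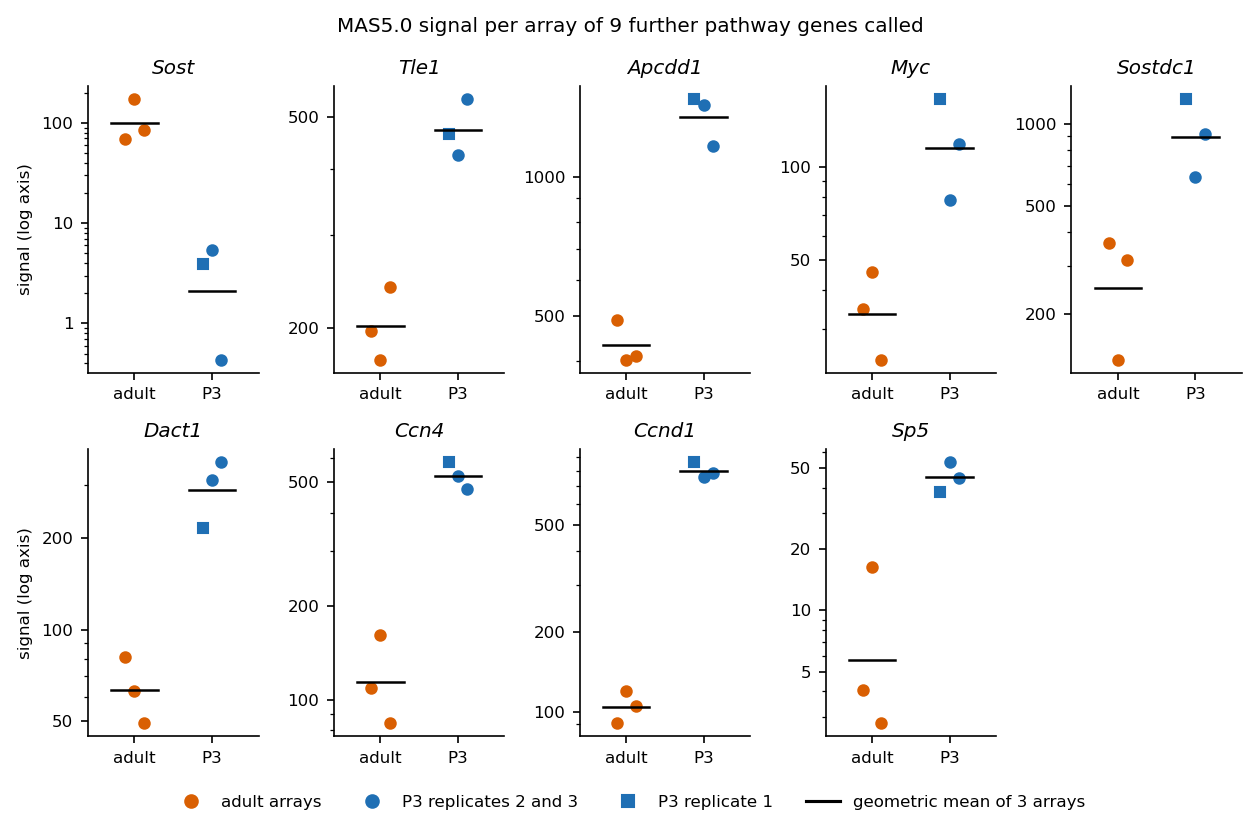
MAS5.0 signal on each array, on a log axis of its own range per gene, of the 9 called genes among 44 further genes of the pathway, with the adult arrays left and the P3 arrays right and the geometric mean of 3 arrays as a line. Squares mark P3 replicate 1. Sost lies between 69.3 and 173 on adult and between 0.434 and 5.41 on P3 arrays, and the other 8 are lower on all adult arrays.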

How the data were processed

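Wnt genes were measured in 6 pools of mouse CSE, 3 adult and 3 P3, on 1-colour Affymetrix arrays. The authors deposited MAS5.0 signal intensity values on a linear scale, each array brought to a mean of 100 after trimming 2% of the signals at either end. The submitters' processing notes name GCOS 1.2, and the methods name another version of that software. The deposited intensities were used without further normalization, and the detection calls were not used here. All columns were matched to a pool by label, with 0 left over.

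Genes were named from an array annotation of that platform: 34945 probe sets named 1 gene, 932 several and 9160 none, beside 64 controls. Background was each array's 90th percentile over 83 probe sets of receptor genes for smell, pheromones and bitter taste, and 29036 probe sets of 13743 single genes above it on at least 3 arrays were kept. Log2 signals were fitted with limma 3.58.1 in R 4.3.3 (lmFit, eBayes with an intensity trend), adult minus P3, and p-values were adjusted over all kept probe sets by Benjamini-Hochberg. The brightest kept probe set stood for a gene. SE and 95% intervals are limma's moderated ones. "At least" marks a fold against signals raised to background, given where no array of the lower stage passed it. Exact permutation of 3 against 3 arrays reaches no p below 0.1 and was not used. The fit was tested on simulated data, and precision is limited by how few arrays there are.

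The rule for the members reads gene symbols alone, but it, the role, pathway and marker lists and the tests were drawn up with earlier results of these data known. Every gene of the rule is named, with signals per array for those called, those whose probe sets disagree and, in roles with no call, the 2 of highest signal, and further genes are given per array where the stages do not overlap or 1 array decides the value. Of the other pathway genes, those called and the 4 others of highest signal by the sum of the stage means are named. Alternatives covered normalization, the background filter, low signals, the variance model, array weights, a replicate block, each array left out, and the mean over probe sets.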

Additional observations from a re-analysis of the deposited data

How the results depend on the processing

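All 10 called Wnt genes kept their direction under all 17 alternatives, and Sfrp1 and Sfrp2 also kept their call. The 1 gene higher in adult CSE became 0 with no intensity trend and 5 with array weights (Fzd9, Rspo1, Sfrp4, Sfrp5 and Wnt2b), and 0 to 2 with an array left out. The 9 lower became 3 with arrays scaled to the same median, 4 with no trend, 4 with the mean over probe sets and 4 to 8 with an array left out. The 14 called probe sets became 6 at the same median, 7 with no trend, 22 with array weights and 7 to 16 with an array left out. The 9 other pathway genes called became 3, 5 and 15 under these settings and 4 to 10 with an array left out. Over all genes the share called lower was 5.54% as reported, 1.49% at the same median, 2.39% with no trend, 5.31% with the mean over probe sets, 12.1% with array weights and 1.77% to 6.44% with an array left out, and the share called higher was 4.58%, 1.42%, 1.83%, 4.89%, 12.4% and 1.11% to 6.04%. The median log2 fold change of the Wnt genes, -0.25, ran from -0.40 to -0.24 with an array left out. The cause of these changes was not tested.

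Of the 34 uncalled Wnt genes, 13 changed sign in at least 1 setting. Array weights turned Dkk3 (0.043), Fzd10 (-1.36), Fzd10os (0.0033), Fzd6 (-0.20), Lgr5 (-0.084), Wnt11 (0.35), Wnt4 (-0.35) and Wnt9a (0.24). Signals raised to background turned Fzd10 (-1.07) and Lrp5 (-0.24), an added background turned Fzd10 (-0.32), quantile normalization turned Fzd6 (-0.017) and Lgr5 (-0.016), and the mean over probe sets turned Fzd6 (-0.63). With an array left out the ranges crossed 0 for Dkk3 (-0.45 to 0.042), Frzb (-0.70 to 0.24), Fzd10 (-1.52 to 0.84), Fzd10os (-0.44 to 0.057), Fzd6 (-0.28 to 0.27), Lgr5 (-0.49 to 0.56), Lrp5 (-0.12 to 0.28), Porcn (-0.19 to 0.78), Wnt4 (-0.42 to 0.47), Wnt6 (-0.16 to 0.67), Wnt7b (-0.37 to 0.14) and Wnt9a (-0.45 to 0.068).

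Same-numbered pools correlated at 0.18, 0.21 and 0.076 in their deviations from the stage means, each higher than with other numbers, a hint of pairing from the data. The labels give no pairing and 1 of the 3 correlations was below 0.1, so the fit reported has no block. With the replicate number as a block, 1 Wnt gene was higher and 9 were lower, the same 10 genes. Probe sets near background, as of Wnt2b, Wnt11 and Lrp5, bear only weak statements.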
